A study of Homo sapiens with 8 samples.

Results

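The replication-dependent histone genes are the clustered, nearly intronless genes that supply the linker histone H1 and the core histones H2A, H2B, H3 and H4 for newly made DNA. The genes examined were every symbol made of H2AC, H2BC, H3C or H4C and a number, together with H1-1 to H1-5. By this rule 65 of the 18693 protein-coding symbols in the deposited tables were members, with 5 H1, 16 H2A, 18 H2B, 12 H3 and 14 H4 genes. Another 3 symbols that the rule names, H2AC18, H3C14 and H4C14, had no entry of their own, because their loci carry the accession of H2AC19, H3C15 and H4C15, and the reads of both loci stand under those symbols here.

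RNA-seq was available for 8 libraries of A498 and 786-O, established cell lines from clear cell renal cell carcinoma. Each cell line had 2 libraries transfected with a non-target control siRNA (NTC) and 1 library with each of 2 siRNAs against the long intergenic non-coding RNA SLINKY, named siRNA #1 and siRNA #2. All siRNAs, NTC included, were transfected at 50 nM for 16 h per the labels, which call them pools. By the paper, however, each SLINKY siRNA was a single custom sequence, and of these siRNAs only the NTC was a pool. The 16 h is the length of the transfection and not the time of RNA isolation. A498 was grown in DMEM and 786-O in RPMI-1640, so that cell line and medium cannot be told apart, and no label says whether the libraries of a line came from separate cultures. The knockdown has the 2 siRNAs as its replicates, and p-values measure only the spread between these libraries.

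Replication-dependent histone mRNAs are the known exception among animal mRNAs in that they normally end in a conserved stem-loop and not in a poly(A) tail. The stem-loop is bound by the stem-loop binding protein SLBP, is cut with the help of the U7 snRNP, and ties the mRNA to S phase, when NPAT switches the genes on. The kit named for these libraries, TruSeq RNA v2, enriches poly(A) RNA, so the values below describe the histone RNA that such a library holds, and the share of transcripts with a tail was not measured.

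A sequence search showed what nearly all these genes share. The stem-loop core, 16 bases that read GG, NN, CTTTT, N, AG, NN and CC in a row with a stem whose arms pair, lay within 150 bases after the stop codon in 60 of 65 member transcripts that could be matched to an annotated coding sequence of GRCh37, against 0.306% of all 20261 annotated coding sequences. Outside the members it was found at H1-6, H2AX, H3-4 and H3-7. The sites of genes that the results turn on are given here from GRCh37, in the direction of the gene, with the 16-base core in capitals.
H1-2, chr6:26055967-26055992, minus strand: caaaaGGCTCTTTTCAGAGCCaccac
H2AC6, chr6:26124892-26124917, plus strand: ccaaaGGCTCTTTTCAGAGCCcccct
H2BC12, chr6:27114140-27114165, minus strand: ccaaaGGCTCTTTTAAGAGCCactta
H4C8, chr6:26285354-26285379, minus strand: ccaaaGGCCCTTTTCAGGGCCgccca
H4C11, chr6:27792232-27792257, plus strand: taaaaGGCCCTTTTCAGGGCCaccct
H4C12, chr6:27798951-27798976, minus strand: caaaaGGCCCTTTTTAGGGCCcccac
These are bases of the 3′ end that the mature mRNA keeps.

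The promoters differed by histone type. In the 250 bases before the start of the gene in RefSeq (GRCh38.p14), searched on both strands for 60 members, AAACACA (the H1 box) was present in 5 of 5 H1 promoters and in 0 of 15 H2A, 0 of 18 H2B, 0 of 10 H3 and 0 of 12 H4 promoters, against 4.95% of all 27305 promoters. The octamer ATTTGCAT was present in 11 of 15 H2A and 14 of 18 H2B promoters, in 1 of 10 H3 promoters, in 0 of 5 H1 and 0 of 12 H4 promoters, and in 1.66% of all promoters. The H3 promoter with the octamer was that of H3C4, whose searched window is the same as that of H2AC7. CCAAT was present in every searched promoter of H1, H2A, H2B and H3 genes but in 3 of 12 H4 promoters, against 33.0% of all. TATAAA was present in 40 of 60 members against 11.1% of all. No motif overlaps another in its letters, and a match is a description of the sequence. The last 150 bases before the start are shown for a high H1 gene, a high H2B gene, an H2A gene that shares its upstream region with H2BC4, and H4C12, with these motifs on either strand in capitals.
H1-2, chr6:26056471-26056620, minus strand: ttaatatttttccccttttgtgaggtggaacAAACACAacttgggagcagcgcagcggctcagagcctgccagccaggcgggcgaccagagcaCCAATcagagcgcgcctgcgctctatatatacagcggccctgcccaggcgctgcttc
H2BC12, chr6:27146859-27147008, minus strand: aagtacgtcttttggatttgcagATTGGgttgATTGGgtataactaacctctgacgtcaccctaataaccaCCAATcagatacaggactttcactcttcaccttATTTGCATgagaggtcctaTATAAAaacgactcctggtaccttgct
H2AC6, chr6:26124022-26124171, plus strand: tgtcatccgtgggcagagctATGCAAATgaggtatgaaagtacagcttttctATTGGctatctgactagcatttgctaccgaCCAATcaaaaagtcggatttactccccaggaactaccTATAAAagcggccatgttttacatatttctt
H4C12, chr6:27831561-27831710, minus strand: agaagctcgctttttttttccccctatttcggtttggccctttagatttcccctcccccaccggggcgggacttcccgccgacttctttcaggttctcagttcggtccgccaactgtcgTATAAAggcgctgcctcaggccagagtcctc

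Values are FPKM, fragment numbers scaled to transcript length and library depth, as deposited for each library on its own. Depth recovered from the deposited intervals came to between 25169121 and 64788498 mapped reads per library, so that 1 read on a transcript of 400 bases was worth 0.0778 to 0.20 FPKM. The members together held 2914 to 6876 reads in an A498 library and 608 to 1028 in a 786-O library. SLINKY was listed at 14.6 and 16.1 FPKM in the A498 NTC libraries and at 1.64 and 3.01 with siRNA #1 and #2, and at 1.45 and 1.39 against 0.0569 and 0.594 in 786-O. The exact permutation test of SLINKY within the cell lines, two-sided, gave p = 0.0556, the smallest that its 36 arrangements allow. Of 9 kidney markers 7 were tested, and PAX8 stood at 39.2 to 48.1 FPKM in every library. CA9, a marker of clear cell carcinoma, was not tested because its mean over the 8 libraries was under 1 FPKM. In 786-O CA9 was near 0, at 0.0229 FPKM or less. Of 7 markers of other cell types, PTPRC and CD3E were listed at 0 in all libraries, and the summed level of the 7 was 2.96 to 3.53 FPKM in A498, nearly all of it COL1A1, and 0.222 to 0.284 in 786-O.

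A few genes supplied much of the histone RNA that these libraries hold, above all in A498. Of the 65 members, 47 were above 0.01 FPKM in all 8 libraries, 13 in some, and 5 in none, namely H1-1, H2AC1, H2BC1, H4C6 and H4C7. Levels of at least 1 FPKM in every A498 library were reached by 25 members, but in every 786-O library by 8. H2BC12, H1-2, H2AC19 and H4C15 alone made up 60.9% to 62.9% of the members' total FPKM in the A498 libraries and 34.0% to 37.7% in the 786-O libraries. The summed FPKM of all members was 272 to 311 in A498 and 44.5 to 52.1 in 786-O, and the mean sums of the cell lines stood in a ratio of 6.16. In such bulk libraries, fewer cells in S phase and less histone RNA per cell cannot be told apart. The share of histone RNA with a poly(A) tail was not measured in either line.

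**Figure D1:**
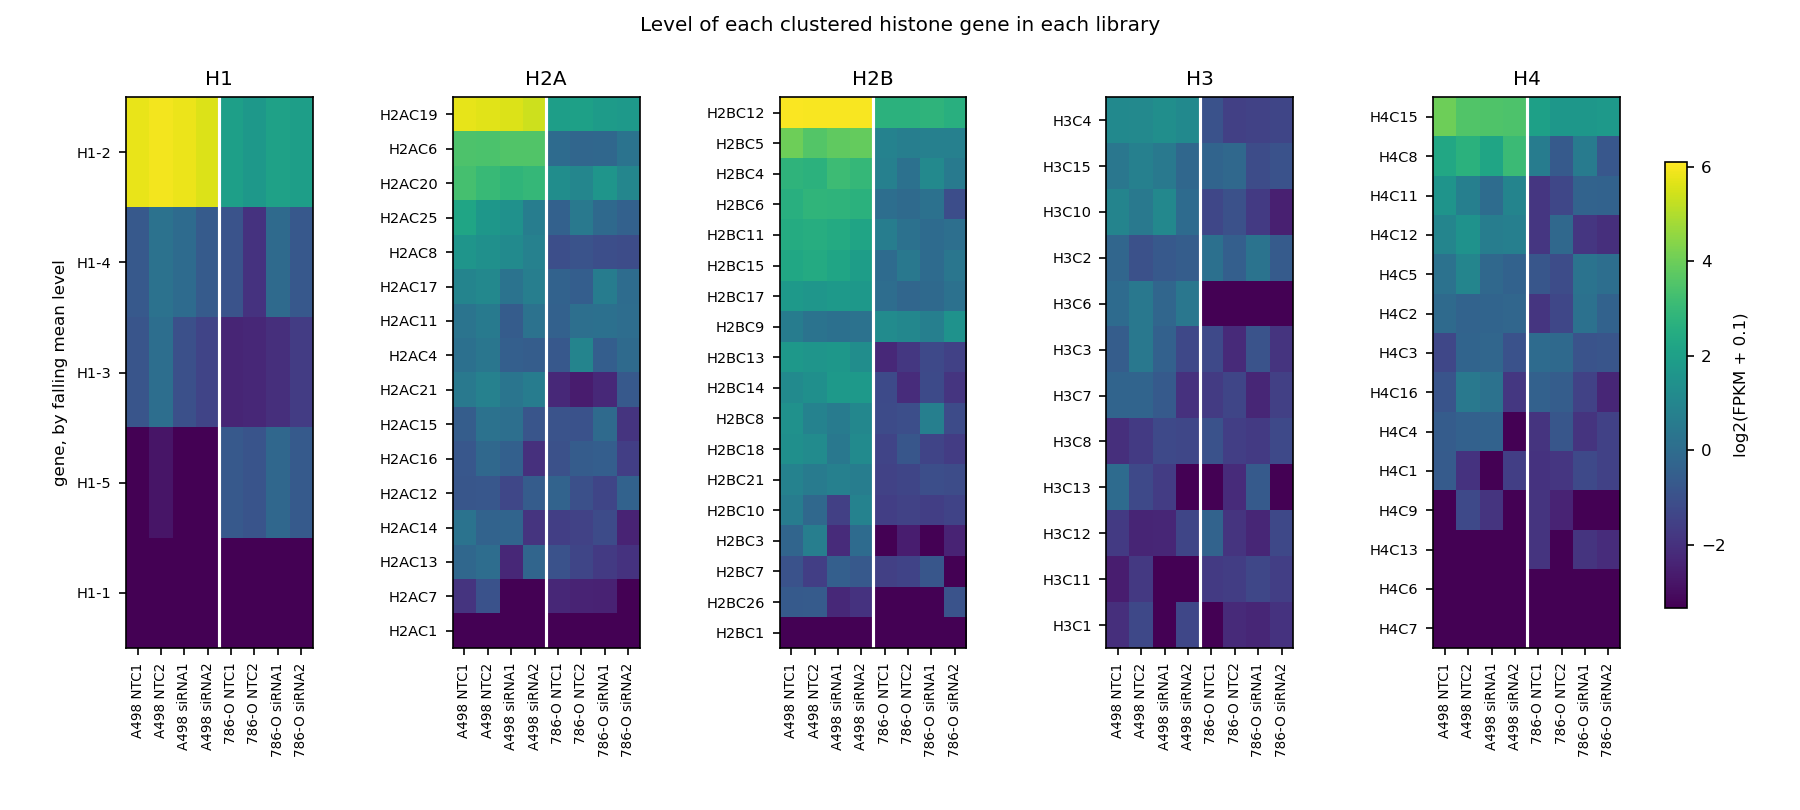
Heat maps by histone type of log2(FPKM + 0.1) for each of the 65 genes (vertical axis, by falling mean) in each of the 8 libraries (horizontal axis), with a white line between A498 and 786-O. H1-2, H2AC19 and H2BC12 stand out in A498, and 5 genes are at 0 throughout.

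The question of the first comparison was how A498 and 786-O differ. It was tested with limma on log2(FPKM + 0.1) for the 10503 genes with a mean of at least 1 FPKM, with knockdown as a covariate and Benjamini-Hochberg adjustment at 0.05, and log2 differences from this scale understate the change of low genes. At this threshold 40.6% of all genes tested were higher in A498 and 42.5% higher in 786-O, so a call alone says little about the members. Only 24 members reached the filter, mostly through their level in A498, and 23 of these were called higher in A498 and H2BC9 higher in 786-O. Over all 60 members above 0, regardless of the filter, 27 had every A498 library above every 786-O library, against 36.5% of the 17055 genes above 0, and 3 had the opposite, against 28.7%. These counts include H2BC3 and H3C11, in which libraries of the 2 lines with equal read numbers are set apart only by depth. A size limit of 4-fold, chosen after the data were seen, was passed by 20 of the 60 members toward A498, against 7.47% of the genes above 0, and by 1 toward 786-O, against 2.16%. The median log2 difference of the 60 members was 1.20, beside 0.07 for all genes above 0.

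Among linker histones, H1-2 had the highest level in every library. H1-2 measured 54.5 and 60.6 FPKM in the A498 NTC libraries and 56.3 and 48.5 with siRNA #1 and #2, against 3.90, 3.12, 4.13 and 3.77 in the same order in 786-O. All A498 libraries lay far above all 786-O libraries, and the mean was 55.0 ± 5.02 against 3.73 ± 0.431 FPKM (SD, n = 4 libraries each), a ratio of 14.7. The limma log2 difference was 3.85 (SE 0.094, adjusted p = 1.79e-10), which placed H1-2 at rank 360 of the 17055 genes above 0 when ordered from the highest difference toward A498. H1-5 was higher in 786-O. It had 0, 1, 0 and 0 reads in the A498 libraries and 11, 17, 17 and 15 in those of 786-O, or 0 to 0.0464 FPKM against 0.447 to 0.791, and was not tested because its mean was below the filter. H1-4 was at 0.517 to 1.08 FPKM in A498 and 0.159 to 0.844 in 786-O, with overlapping libraries. H1-3 stayed under 1 FPKM in every library and was not tested. It was at 0.277 to 0.949 FPKM in A498 and 0.0958 to 0.222 in 786-O, without overlap.

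H2A is the partner of H2B in the outer dimers of the nucleosome. The H2A genes summed to 70.3 to 90.8 FPKM in A498 and 11.8 to 14.0 in 786-O, and their mean sums stood in a ratio of 6.25. H2AC19 led with 53.5, 50.5, 48.6 and 41.3 FPKM in A498 (NTC 1, NTC 2, siRNA #1, siRNA #2) against 3.82, 4.01, 3.54 and 3.20 in 786-O. The log2 difference was 3.70 (SE 0.060, adjusted p = 1.43e-11), and no library of one line reached the other. This symbol covers both H2AC18 and H2AC19, inverted copies on chromosome 1 in which 0% of the 36-base words are unique in the genome. A498 NTC 1 had 488 reads at the copy at chr1:149813785-149814318 and 454 at the copy at chr1:149822628-149823161, so only their sum can be read.

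H2AC6 was nearly constant within each line. Its 4 A498 libraries held 11.1, 10.8, 11.6 and 11.5 FPKM and its 786-O libraries 0.881, 0.765, 0.795 and 1.11, a ratio of means of 12.6 (log2 3.53, SE 0.094, adjusted p = 3.31e-10). In this gene 95.9% of the 36-base words are unique, so few of its reads could belong to a copy elsewhere. H2AC20 was higher in A498 at 6.99 to 9.95 against 1.90 to 2.91 FPKM (log2 1.81, adjusted p = 1.31e-06). Only 58.5% of its 36-base words are unique and 32.8% are also in H2AC19, so some of its reads may belong to H2AC19. H2AC8 differed by a log2 of 2.30, H2AC25 by 1.60 and H2AC17 by 0.81, each in favour of A498, with adjusted p of 4.96e-08, 1.78e-04 and 0.0143. The libraries of H2AC17 overlapped between the lines, with 1.09 to 2.01 FPKM in A498 beside 0.597 to 1.44 in 786-O, and without A498 NTC 2 its adjusted p was 0.0515. The other 9 H2A genes above 0 were under the filter, and in 8 of them the libraries of the lines overlapped. The exception was H2AC21, at 1.30, 1.67, 1.15 and 1.46 FPKM in A498 and 0.112, 0.0629, 0.111 and 0.519 in 786-O, a log2 difference of 2.52 that was not tested. H2AC4 was at 0.579 to 1.19 FPKM in A498 and 0.501 to 1.80 in 786-O, and H2AC12 at 0.305 to 0.571 against 0.294 to 0.691, and in both genes the ranges overlapped.

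H2B genes had the highest sums of all types, 119 to 126 FPKM in A498 and 17.0 to 19.5 in 786-O. H2BC12 was the highest member of all. It measured 66.7, 64.4, 63.7 and 64.5 FPKM in A498 and 6.48, 6.51, 6.95 and 6.11 in 786-O, and the spread within a line was 1.28 and 0.346 FPKM (SD, n = 4). The ratio of means was 9.95 and the log2 difference 3.30 (SE 0.047, adjusted p = 6.78e-12). On the genome its entry ends 8068 bases past the stem-loop shown above. Entries of H2BC21, H2BC5 and H2BC18 also end more than 100 bases past theirs, while 56 entries with a stem-loop end within 100 bases of it. These distances count any intron, so they do not give the length of the RNA. In the coding part of H2BC12 16.9% of the 36-base words are unique, and it shares 26.2% of them with H2BC6.

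H2BC5 has a short entry that ends at the stem-loop and a long one that ends 12741 bases beyond on the genome, any intron included. The long entry was listed at 10.6, 10.4, 13.1 and 10.5 FPKM in A498 and at 0.638, 0.637, 0.840 and 0.746 in 786-O. The short entry was at 5.57, 1.36, 0.821 and 3.89 in A498 and at 1.05, 0.914, 0.791 and 0.864 in 786-O. The long entry thus set the lines apart in every library, and the short one overlapped. Cufflinks divides reads between overlapping entries by estimate, so the division is less certain than the sum, which differed by a log2 of 3.03 (SE 0.091, adjusted p = 7.77e-10).

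Other H2B genes were also higher in A498, though some reads of those with few unique 36-base words may belong to other copies. The share of unique words was 16.5% in the short entry of H2BC18, 53.6% in H2BC15 and 94.2% in H2BC14. H2BC4 differed by a log2 of 2.24, H2BC6 by 2.96, H2BC11 by 2.17, H2BC13 by 3.26, H2BC14 by 3.11, H2BC15 by 2.02, H2BC17 by 1.73 and H2BC18 by 2.37, with adjusted p between 3.75e-08 and 1.29e-06, and in each of these no library of one line reached the other. H2BC8 differed by 1.64 (adjusted p = 0.00348), but 786-O with siRNA #1, at 1.58 FPKM, lay inside the A498 range of 1.40 to 2.64. H2BC9 was the exception. It was at 1.44, 1.10, 1.02 and 1.07 FPKM in A498 and at 2.23, 1.94, 1.60 and 2.67 in 786-O, with every 786-O library above every A498 library (log2 -0.80, SE 0.15, adjusted p = 7.23e-04). Of the 5 H2B genes above 0 but under the filter, H2BC21 and H2BC3 did not overlap between the lines. H2BC21 was at 1.40 to 1.71 FPKM in A498 and 0.259 to 0.379 in 786-O, and H2BC3 had 9, 13, 1 and 5 reads against 0, 1, 0 and 1. The 1 read of H2BC3 in A498 siRNA #1 made 0.124 FPKM, and that in 786-O NTC 2 and siRNA #2 made 0.0676 and 0.0929. Only depth sets these libraries apart.

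**Figure D2:**
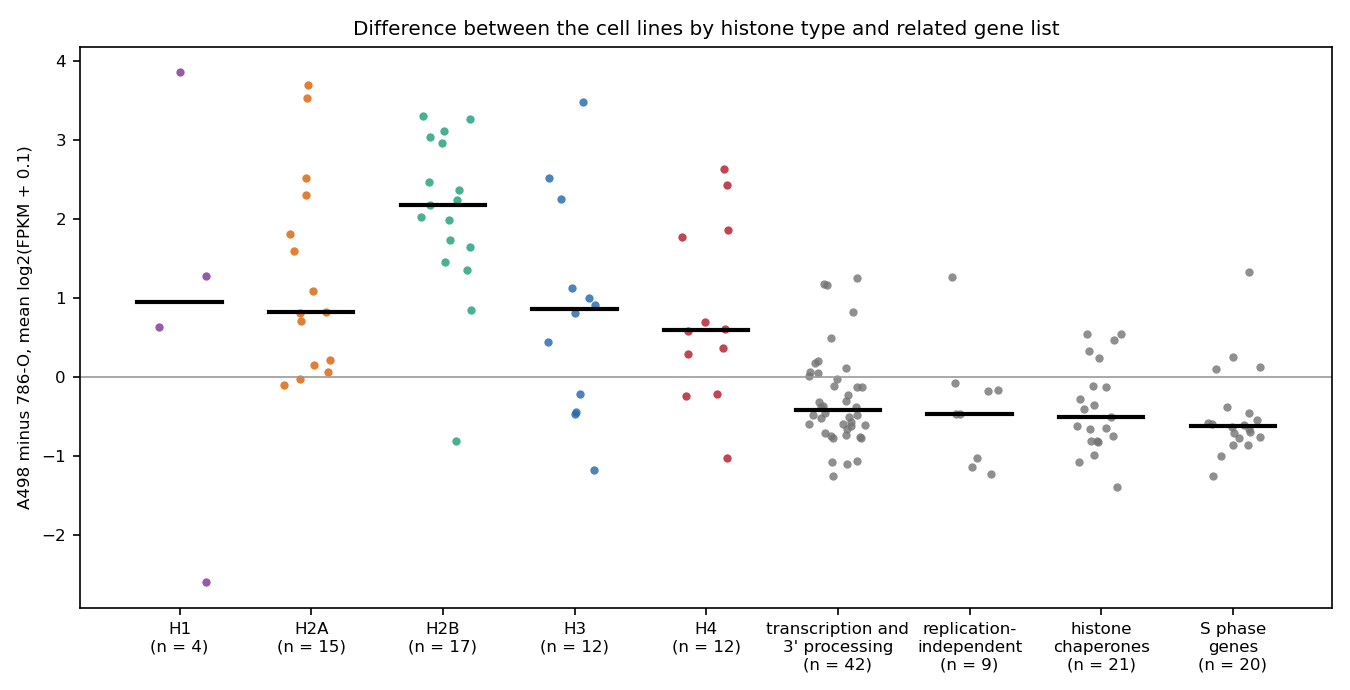
Difference of the mean log2(FPKM + 0.1) between A498 and 786-O (vertical axis) for each member above 0 by histone type and for the tested genes of 4 related lists, with black bars at the medians. The H2B median is 2.17, and the medians of the 4 lists lie between -0.62 and -0.42.

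Core histones H3 and H4 form the inner tetramer of the nucleosome. H3 genes had the lowest sums of the core types, 6.93 to 9.78 FPKM in A498 and 2.77 to 4.31 in 786-O, and H3C4 alone reached the filter. H3C4 was at 2.13, 2.06, 2.44 and 2.10 FPKM in A498 and 0.414, 0.241, 0.266 and 0.296 in 786-O (log2 2.51, SE 0.13, adjusted p = 5.67e-08). The span of its entry holds that of H2AC7, which was listed at 0.419 FPKM or less in every library. Cufflinks divides reads between overlapping entries by estimate, so some reads listed under H3C4 may belong to H2AC7. H3C6 had 12, 12, 7 and 8 reads in A498 and 0 in each 786-O library, which makes its mean at least 16.5-fold higher in A498 when 786-O is set to 3 reads over its 4 libraries. H3C10 stood at 0.882 to 1.99 FPKM against 0.0785 to 0.400, again without overlap. H3C2 was at 0.405 to 0.768 in A498 and 0.552 to 1.11 in 786-O, and H3C15 at 0.784 to 1.61 against 0.359 to 0.812, both with overlap. H3C11 was at 0 to 0.199 in A498 and at 0.20 to 0.299 in 786-O, which is 3 reads against 12 over all libraries of a line. Its highest A498 library and its lowest 786-O library each had 2 reads, so only depth sets these apart.

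Among H4 genes, H4C15 (both loci of H4C14 and H4C15 together) was at 16.1, 11.5, 11.4 and 11.1 FPKM in A498 and 3.98, 3.03, 3.10 and 3.29 in 786-O (log2 1.86, SE 0.11, adjusted p = 1.43e-07). H4C8, in which 100% of the 36-base words are unique, was at 4.93, 6.35, 4.61 and 8.56 in A498 and 1.44, 0.539, 1.43 and 0.494 in 786-O (log2 2.63, SE 0.35, adjusted p = 5.63e-05). H4C11 and H4C12 differed by 1.77 (adjusted p = 0.00189) and 2.43 (adjusted p = 4.49e-05). In each of these 4 genes all A498 libraries were above all 786-O libraries. H4C13 had 0 reads in A498 and 1 read in each of 3 libraries of 786-O, a difference that was not detectable at this depth.

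The sums of each cluster of genes were higher in A498 in the mean, by ratios that differed. The entries at chr6:25726291-26285727 summed to 113 to 125 FPKM in A498 and 17.2 to 22.4 in 786-O, those at chr6:27100095-27861669 to 90.7 to 98.5 and 15.1 to 17.4, and those at chr1:149754245-149859466 to 65.9 to 87.2 and 9.91 to 11.5 (all hg19). The ratios of the mean sums were 6.17, 5.88 and 6.99. In A498 the largest parts of these sums were H1-2, H2BC12 and H2AC19, in the same order. H1-2 held 48.5 to 60.6 FPKM of the first sum and H2BC12 63.7 to 66.7 of the second. The ratios therefore do not describe every gene of a cluster. H2AC25 and H2BC26, at chr1:228645065-228646259, summed to 1.65 to 5.08 against 0.656 to 1.32 FPKM, a ratio of 3.36. H4C16 on chromosome 12 was at 0.190 to 1.30 against 0.101 to 0.656, with overlap and a ratio of 1.88.

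Many H2A and H2B genes lie head to head with a short stretch between them, and the members of such couples often differed in how far they were apart between the lines. Of 11 neighbouring couples with reads, 8 had the larger difference toward A498 in the H2B gene. Among these 8, H2AC20 and H2BC21 were close, with log2 differences of 1.81 and 1.98. H2AC7, in another, had mean levels of only 0.146 FPKM in A498 and 0.0717 in 786-O. The extreme was H2AC12 and H2BC12, separated by 223 bases, with a log2 difference of -0.10 for the H2A gene and 3.30 for the H2B gene. H2AC13 and H2BC13 followed with 0.83 and 3.26, H2AC11 and H2BC11 with 0.16 and 2.17, and H2AC14 and H2BC14 with 1.09 and 3.11. Mean levels in A498 and 786-O were 0.460 and 0.515 FPKM for H2AC12, but 64.8 and 6.51 for H2BC12. H2AC13 and H2AC14 were also under 1 FPKM in both lines, as were H2BC13 and H2BC14 in 786-O. The scale understates the differences of such low genes, so the couples are not compared on equal terms. The reverse was seen for H2AC6 (3.53) and H2BC4 (2.24), whose shared upstream region is shown above. In A498 the mean levels in this couple were 11.2 and 7.45 FPKM, and in 786-O 0.888 and 1.53. Couples share their libraries and, in part, 36-base words with other copies, and no test was made over them.

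**Figure D3:**
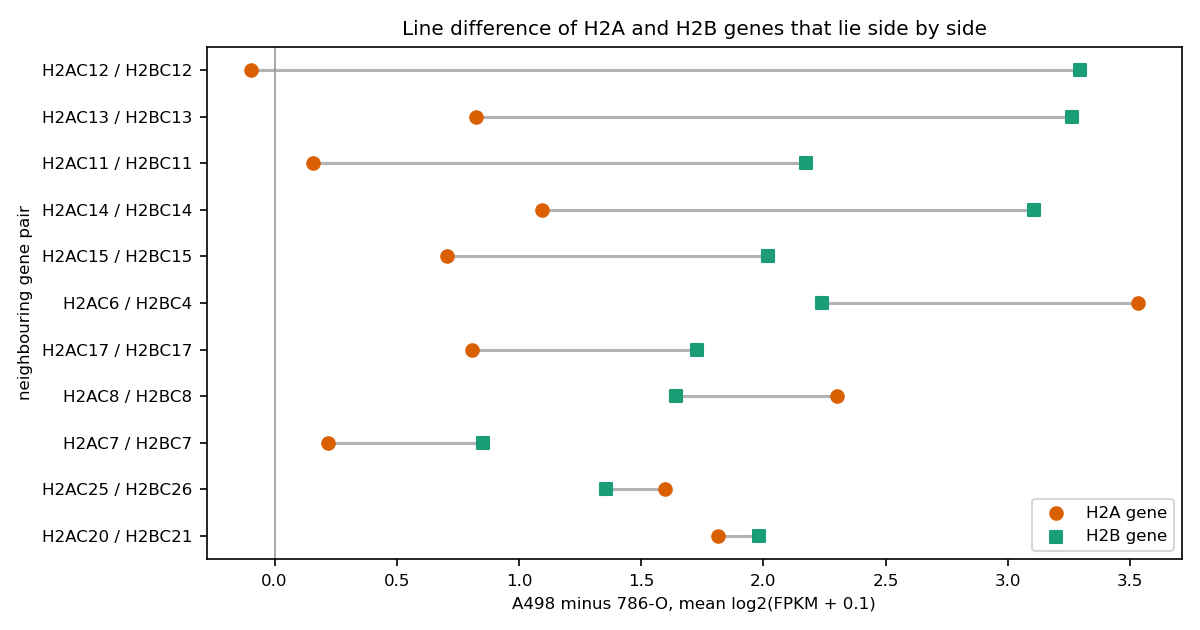
Difference of the mean log2(FPKM + 0.1) between A498 and 786-O (horizontal axis) for the H2A gene (circles) and the H2B gene (squares) of the 11 neighbouring couples with reads (vertical axis). H2AC12 and H2BC12 are farthest apart, at -0.10 and 3.30.

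Genes of 4 related lists were more often called higher in 786-O than in A498. Over all genes tested the shares were 42.5% and 40.6%, no test compared the lists with other genes, and SLBP, CCNE2, SSRP1 and MCM2 each stand in more than one list. Of the list of histone gene transcription and 3′ processing factors, 42 of 47 were tested, 8 were higher in A498 and 29 higher in 786-O, and the median log2 difference was -0.42, beside -0.02 for all genes tested. SLBP, which binds the stem-loop, was at 60.8, 68.2, 63.4 and 62.0 FPKM in A498 and at 105, 105, 103 and 99.9 in 786-O (log2 -0.70, adjusted p = 1.09e-07). NPAT, the coactivator of histone gene transcription, was below the filter at 0.627 to 0.860 FPKM in A498 and 0.979 to 1.10 in 786-O. SSRP1, a subunit of the FACT chaperone, had a log2 difference of -1.07 and WDR33, a subunit of the polyadenylation complex, of -1.10. CCNE1, the cyclin that activates CDK2 at the start of S phase, was higher in A498 by 1.17, and CCNE2 was lower by a log2 of -1.25. Among the enzymes of histone mRNA decay, TUT7 was higher in A498 by 1.16 and ERI1, which trims the stem-loop, by 0.82. The 9 tested genes of the replication-independent histones, which end in a poly(A) tail, split into 1 higher in A498, 7 higher in 786-O and 1 not called. H2AZ1 had 599 to 687 FPKM in A498 and 688 to 759 in 786-O (log2 -0.18), and H3-3B 187 to 203 against 212 to 225 (log2 -0.16). H2AX, which also has the stem-loop, was at 38.8 to 47.9 against 74.9 to 99.5 (log2 -1.02), and H2AJ was the gene higher in A498 (log2 1.26). H3-3A, the other gene for H3.3, was listed at 1.27e-04 FPKM or less in all libraries but 786-O NTC 2 (0.981), and was not compared. Of 21 histone chaperones, 5 were higher in A498 and 14 in 786-O, with ASF1B at a log2 of -1.39. Of 20 S phase reference genes, 2 were higher in A498 and 16 in 786-O, with a median log2 of -0.62. None of the tested genes of these 4 lists passed 4-fold toward A498, a limit chosen after the data were seen. The share of 7.47% past this limit is for all genes above 0, a wider set than the genes tested.

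The second question was whether depletion of SLINKY changed the histone genes. In this test 0 of the 24 members passed an adjusted p of 0.05 over both lines, in A498 or in 786-O, and the knockdown by line interaction also called 0, where the percentages over all 10503 genes tested were 0.0%, 0.0286%, 0.0% and 0.00952%. At an unadjusted p under 0.05 over both lines, 6 members were lower after knockdown and 0 higher, beside 5.73% and 6.16% of all genes. These were H2AC8, H2AC19, H2AC25, H2BC11, H2BC18 and H4C12. In A498 the numbers were 7 lower and 2 higher, beside 3.69% and 2.39%, and in 786-O 0 lower and 3 higher, beside 1.47% and 2.32%. The interaction passed an unadjusted p of 0.05 for 3 members (H2AC17, H2BC13 and H4C11), beside 1.82% of all genes. Without A498 siRNA #1, limma called H2AC25, H2AC8 and H4C8 in A498, beside 1.49% of all genes, and without A498 siRNA #2 it called H2AC17, H2BC18 and H4C11, beside 0.914%, whereas none was called with both. In these fits the lone siRNA library is assumed to vary like the NTC pair. The median log2 fold change of the 24 members was -0.01 over both lines, -0.21 in A498 and -0.0028 in 786-O.

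H2AC19, the member of this group with the most reads, had a log2 fold change of -0.21 over both lines (SE 0.060, adjusted p = 0.335), with -0.10 and -0.33 for siRNA #1 and #2 in A498 and -0.14 and -0.28 in 786-O. All 4 values were below 0, and the NTC libraries differed by 0.08 and -0.07 in the lines. H2BC12, with 1032 to 2255 reads in each A498 library, had a log2 fold change of -0.01 (SE 0.047), and H1-2 of 0.02 (SE 0.094). In A498, H2AC25 was at 4.55 and 3.07 FPKM with NTC and 2.60 and 1.49 with the siRNAs, and H2AC8 at 2.91 and 2.56 against 2.19 and 1.65. Both NTC libraries were above both siRNA libraries in each gene, but the log2 fold changes of -0.89 and -0.50 did not pass adjustment. H2BC4 was at 6.95 and 6.48 FPKM with NTC and at 8.76 and 7.60 with the siRNAs in A498, a log2 fold change of 0.28 that did not pass adjustment either.

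Against the mean of the NTC libraries, with the fold limit that the study used for single siRNAs (a log2 difference of 0.32 either way), 7 of the 24 members were lower and 2 higher with siRNA #1 in A498, where 2.42% and 1.39% of all genes were. With siRNA #2 the numbers were also 7 and 2, beside 3.12% and 2.37%. In 786-O siRNA #1 gave 4 lower and 8 higher (2.76% and 3.15%), and siRNA #2 gave 6 lower and 5 higher (1.74% and 2.18%). The NTC libraries, compared with each other, gave 2 lower and 6 higher in A498 (2.55% and 2.11%) and 6 and 6 in 786-O (2.68% and 1.95%). A larger share of the members than of all genes lay past the limit, also between the control libraries, and a lone library is a weak measure for genes with so few reads.

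**Figure D4:**
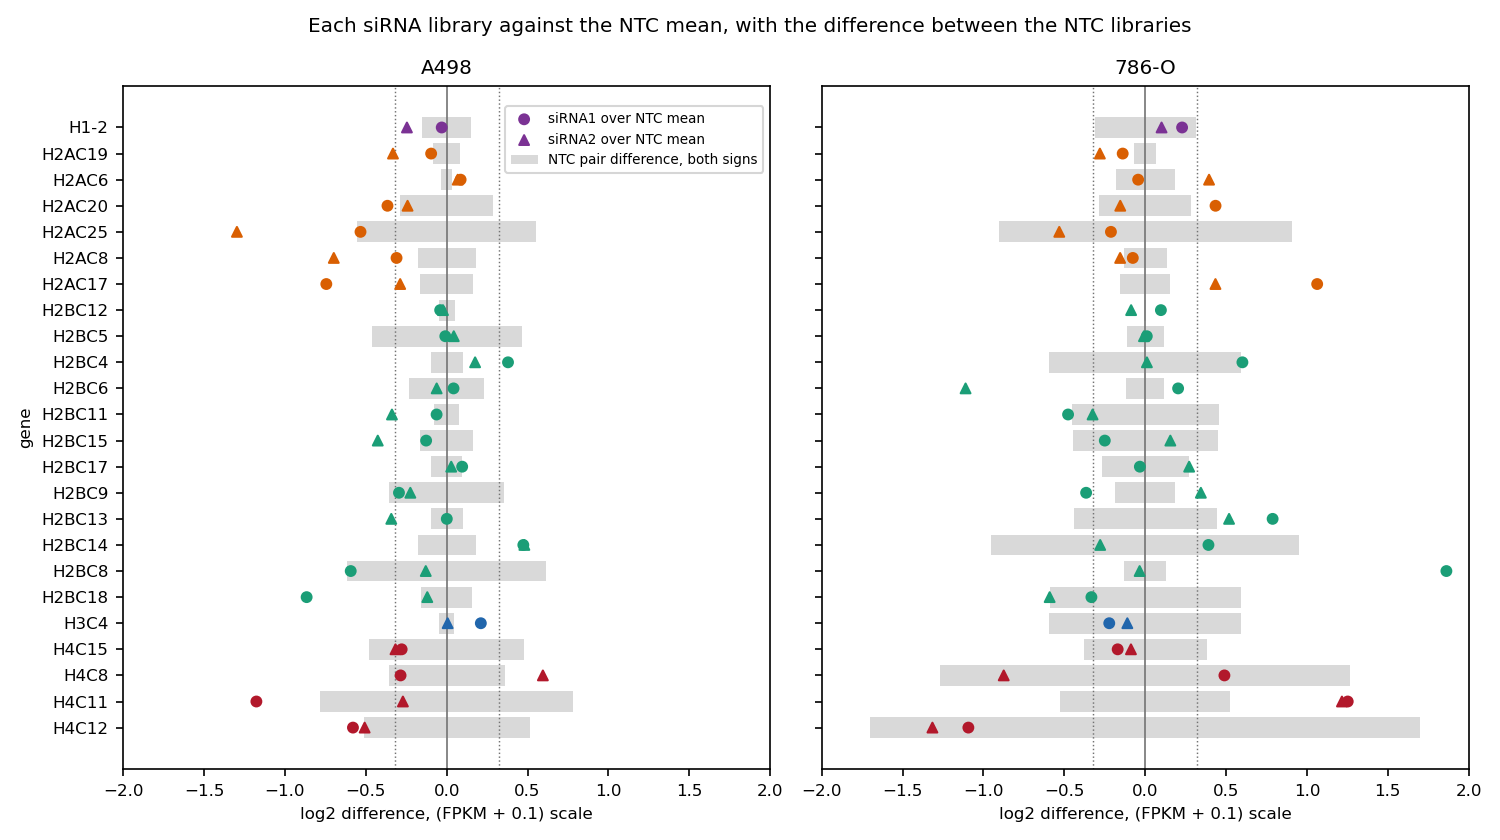
Log2 difference on the (FPKM + 0.1) scale of each siRNA library from the NTC mean (circles, siRNA #1; triangles, siRNA #2) for the 24 tested members (vertical axis) in A498 and 786-O. Grey bars show the difference between the NTC libraries with both signs, dotted lines mark the log2 limit of 0.32, and colours mark the histone type. H4C12 lies left of the dotted line in all 4 siRNA comparisons, and in 786-O inside the grey bar.

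H4C12 was the member past this limit in the same direction in all 4 siRNA comparisons, as were 0.0571% of all genes upward and 0.019% downward. It was no longer past the limit in all 4 without A498 NTC 2, without 786-O NTC 2, or with each siRNA set against the NTC library of its own number (replicate block). Its values were 1.85 and 2.69 FPKM with NTC and 1.49 and 1.57 with siRNA #1 and #2 in A498, and 0.181 and 0.812 against 0.179 and 0.140 in 786-O. In A498 both siRNA libraries were below both NTC libraries, and in 786-O NTC 1 was level with siRNA #1. The log2 fold changes from the NTC mean were -0.58 and -0.51 in A498 and -1.09 and -1.32 in 786-O, where the NTC libraries differed from each other by -0.51 and -1.70. Over both lines limma gave -0.74 (SE 0.31, unadjusted p = 0.0401, adjusted p = 0.402), in A498 -0.52 and in 786-O -0.97, and without 786-O NTC 2 the value over both lines was -0.36. H4C12 had been picked out beforehand for its fall in these same data, so these values are a description and not an independent test.

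Few reads stood behind these values. H4C12 had 15 and 15 reads in the NTC libraries and 8 and 6 in the siRNA libraries of A498, and 1 and 8 against 1 and 1 in 786-O. The exact Poisson 95% interval of 15 reads is 8.40 to 24.7 and that of 1 read is 0.0253 to 5.57. Such intervals cover counting error only. H4C12 lies at chr6:27798952-27799305 of hg19, and its coding sequence of 309 bases is the same as that of H4C11 at chr6:27791903-27792258, with 0 differences. Of the 36-base words of H4C12, 92.2% are also in H4C11 and 7.84% are unique in the genome, so a read of 36 bases can seldom tell the genes apart. The flanks differ, as in the stem-loop sites shown above.

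H4C11 and H4C12 had fold changes of opposite sign in 786-O. H4C11 had 23 and 9 reads with NTC and 5 and 7 with the siRNAs in A498, but 1 and 3 against 4 and 5 in 786-O, with limma log2 fold changes of -0.67 and 1.26. Summed, an alternative chosen after the data were seen, the copies had 38 and 24 reads against 13 and 13 in A498 and 2 and 11 against 5 and 6 in 786-O. As RPM, reads scaled to the estimated number of mapped reads, this was 0.690 against 0.429 in A498 and 0.128 against 0.131 in 786-O. The log2 fold change of the sum was -0.63 in A498, where H4C12 alone had -0.52, and 0.36 in 786-O, where H4C12 alone had -0.97, with means over both lines of -0.14 and -0.74. The part that the placement of shared reads has in the values of H4C12 was not tested.

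**Figure D5:**
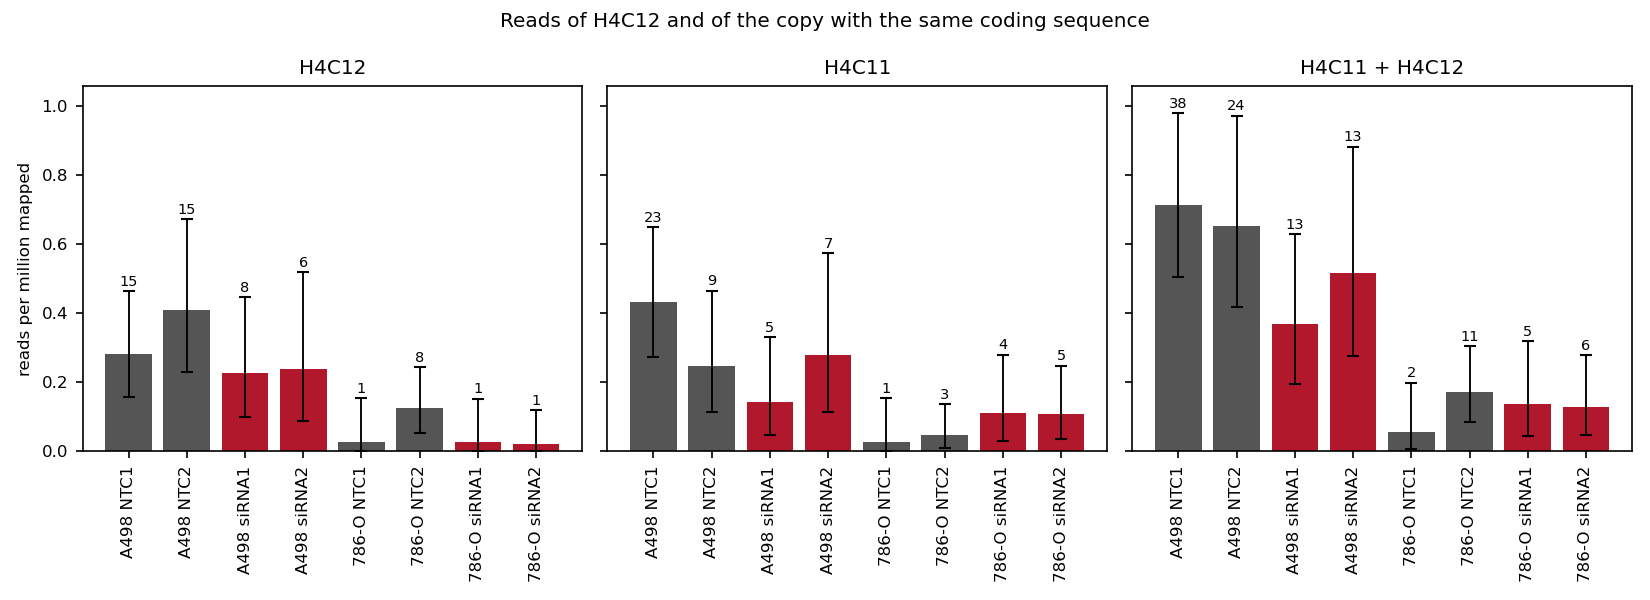
RPM, reads scaled to mapped reads (vertical axis), of H4C12, H4C11 and their sum in each library (horizontal axis), with exact Poisson 95% intervals and the number of reads above each bar; grey bars are NTC and red bars siRNA libraries. The intervals of siRNA and NTC libraries overlap in each line for each panel.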

How the data were processed

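Reads of 36 bases, single-end, were aligned by the authors to hg19, and the deposited values are FPKM of each library on its own with a 95% interval; the submitters' processing notes name TopHat2 2.0.0 and Cufflinks 2.0.2. Of 75378 rows in each deposited table, 35951 are protein-coding RefSeq rows, 97.7% of which were matched to a symbol of the RefSeq table (GRCh38.p14, names only), and FPKM was summed per symbol. Interval widths gave whole read numbers, within 0.01, for 92.2% of the 489 member values above 0, and depth was computed from these with an assumed fragment length of 200 ± 80 bases. No count model was fitted.

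Log2(FPKM + 0.1) was tested with limma 3.58.1 in R 4.3.3 (empirical Bayes with a mean trend, Benjamini-Hochberg), over all 10503 genes with a mean of at least 1 FPKM. On simulated data for the comparison of the lines, 196 of 200 genes changed 2-fold were called, with 13 false calls. Of genes changed by a log2 of 0.32, 97 of 200 were called, with 3 false calls. For knockdown the numbers called were 194 and 128, with 17 and 6 false calls. The changed genes were drawn from all genes tested, so these rates need not hold for members with few reads. Noise was drawn as independent normal values with the spread of each gene, and both siRNAs were given the same effect. Where the siRNAs differ or libraries vary together, the rates need not hold either. The alternatives were pseudocount, filter, scaling, row choice, a replicate block and leaving out each library. Named members were H4C12, the 4 highest per type, those called in any comparison and those past a log2 difference of 0.32 in all 4 siRNA comparisons; list genes were those called or furthest apart, with SLBP, NPAT, H2AZ1, H3-3A and H3-3B. Others were named after their values were seen. Members and lists were chosen with earlier results of these data known, among them the fall of H4C12. The 36-base words were counted in GRCh37 on both strands.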

Additional observations from a re-analysis of the deposited data

Results flagged for a closer look

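Members were examined for knockdown effects that run in opposite directions in the cell lines, with no overlap between NTC and siRNA libraries in either. This was so for 4 of the 60 members above 0 (H2AC17, H1-3, H3C11 and H4C5), or 6.67%, beside 2.52% of all genes above 0, and these 4 rest on few reads. H2AC17 was at 1.79 and 2.01 FPKM with NTC and at 1.09 and 1.54 with siRNA #1 and #2 in A498, but at 0.677 and 0.597 against 1.44 and 0.896 in 786-O. The difference of the log2 fold changes was -1.26 (A498 minus 786-O), and the limma interaction gave an adjusted p = 1.0. The other members were not tested because their means were under the filter. H1-3 had 14 and 20 reads with NTC and 8 and 4 with the siRNAs in A498, but 2 and 4 against 3 and 6 in 786-O, a difference of log2 fold changes of -1.30. H4C5 had 10 and 12 reads against 5 and 3 in A498 and 3 and 4 against 7 and 8 in 786-O, a difference of -2.00. H3C11 had 1 and 2 reads against 0 and 0 in A498 and 2 and 4 against 3 and 3 in 786-O, a difference of -1.39 that cannot be separated from counting error at this depth. Groups of 2 libraries were too small to look for single outlying libraries.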

How the results depend on the processing

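Counts of members called in the comparison of the lines (23 higher in A498, 1 higher in 786-O) depended on the filter: 7 and 0 were called with a mean of at least 5 FPKM, and 4 were called higher in 786-O without a filter. The median log2 difference of the members tested, 2.33, was 1.53 with a pseudocount of 1, 2.61 with 0.01, 1.20 without a filter and 3.30 with the filter of 5. It ranged from 2.26 to 2.39 when a library was left out, and the counts ranged from 22 to 23 and stayed at 1. The number of members called for knockdown was 0 over both lines, in 786-O and for the interaction under all alternatives run, and ranged from 0 to 3 in A498 when a library was left out. Members past the fold limit in all 4 siRNA comparisons numbered 1, but 2 without a filter, 0 with the filter of 5, 0 when each siRNA was set against the NTC library of its own number (replicate block), and 0 to 2 when a library was left out. It was 0 without A498 NTC 2 or 786-O NTC 2, so H4C12 depends on these controls. The log2 fold change of H4C12 over both lines, -0.74, was -0.14 when summed with H4C11, an alternative chosen after the data were seen (-0.63 in A498 and 0.36 in 786-O, where H4C12 alone had -0.52 and -0.97), and -0.36 without 786-O NTC 2, the closest to 0 among left-out libraries, with -1.04 without 786-O NTC 1 as the farthest. Libraries with the same number deviated together with a correlation of 0.254 in A498 and -0.031 in 786-O, so the number alone does not show pairing, and a replicate block changed no other count. Single-member line differences kept their direction and call in 390 recomputed values and lost the call in 1 (H2AC17), and all 352 recomputed knockdown values of single members stayed uncalled.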
